A study of Sus scrofa with 16 samples.

Results

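Chromatin accessibility at 7 myeloid and macrophage genes was examined in 8 lists of consensus ATAC-seq peaks from pig tissues. The genes were SPI1, IRF8, CSF1R, ITGAM, CD14, TLR4 and CD163, of 19560 protein-coding genes (PCGs) in the RefSeq annotation of Sscrofa11.1. A peak belonged to a gene when it overlapped, by at least 1 bp, a promoter (2.2 kb upstream to 500 bp downstream of an annotated start site) or the gene body with 10 kb on either side. Distances are from the nearest annotated start site. This rule took 225 of the 798988 peaks in the 8 lists. ATAC-seq marks open chromatin by the insertion of adaptors with a transposase, here into nuclei isolated from frozen tissue.

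All 16 libraries came from female domestic crossbred pigs, with 2 libraries in each of 8 groups and no treatment. Spleen, lung, liver, heart, kidney and skeletal muscle were sampled in newborns (day 0 in the labels), and liver also from suckling pigs of 28 days and from adult pigs of 180 days. The study describes hybrids of Berkshire and Tibetan pigs, a pair of full sisters at each age, with newborns a day old, so all newborn tissues come from the same pair of animals and each liver age from another pair. The authors merged the replicates of a group into a single list of between 57126 peaks in muscle and 141689 in suckling liver, and each peak carries a −log10 p for each replicate. Read counts are not in the lists, the number of reads behind a peak is therefore unknown, and a peak missing from a list was not called, which does not measure its absence. A count in a list has no replicate error, and no test between groups was made, since 2 against 2 libraries cannot give an exact two-sided permutation p below 0.33.

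Macrophages and monocytes arise from myeloid progenitors in which the ETS factor PU.1, the product of SPI1, opens lineage enhancers and works with IRF8. CSF1R, the receptor for the growth factors CSF1 and IL34, keeps macrophages alive, and the integrin chain ITGAM (CD11b), the lipopolysaccharide receptors CD14 and TLR4, and the haemoglobin scavenger receptor CD163 are carried by the mature cells. Liver holds resident Kupffer cells and, around birth, blood-forming cells, whereas spleen holds red pulp macrophages and lung holds alveolar macrophages. In whole tissue, fewer cells of a type and less open chromatin per cell cannot be told apart.

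The elements on which the results turn are shown first, from the Sscrofa11.1 RefSeq genome and in the direction of transcription of the gene. Capitals mark matches, on either strand, to the consensus letters of PU.1 (GAGGAAGT), the ETS-IRF composite element (GGAA, any 2 bases, then GAAA), C/EBP (TTGCNNAA), RUNX (TGTGGTT) or AP-1 (TGANTCA). The letters of PU.1 and of the composite element can overlap. For SPI1 the region upstream of the gene is shown, which was among the strongest peaks of the liver lists (chr2:15221802-15222002, plus strand, centred on the newborn liver summit).
SPI1 upstream element: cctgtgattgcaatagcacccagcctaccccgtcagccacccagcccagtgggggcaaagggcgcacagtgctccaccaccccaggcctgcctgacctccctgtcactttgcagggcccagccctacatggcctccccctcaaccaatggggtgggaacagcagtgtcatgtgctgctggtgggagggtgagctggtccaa
The upstream element lay between genes and held none of the 5 consensus sequences in these 201 bases.

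For IRF8 and CSF1R, the bases before a start site are shown because the IRF8 promoter was called in every list and the CSF1R promoter was not (chr6:3060686-3060885 and chr2:151129623-151129813, both minus strand). The CSF1R stretch precedes the start site under the spleen peak, lies inside the gene, since another start site is annotated further upstream, and leaves out the exon bases. The intronic CSF1R element is centred on the spleen summit (chr2:151126441-151126641, minus strand).
IRF8 promoter: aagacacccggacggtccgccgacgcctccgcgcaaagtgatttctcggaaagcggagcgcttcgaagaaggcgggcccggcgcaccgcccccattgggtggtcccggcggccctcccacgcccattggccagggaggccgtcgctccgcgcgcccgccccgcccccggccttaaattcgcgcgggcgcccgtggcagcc
CSF1R promoter: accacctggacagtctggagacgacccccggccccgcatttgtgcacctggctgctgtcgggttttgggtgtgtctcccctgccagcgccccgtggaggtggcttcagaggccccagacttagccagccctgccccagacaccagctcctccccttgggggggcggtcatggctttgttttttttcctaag
CSF1R intronic element: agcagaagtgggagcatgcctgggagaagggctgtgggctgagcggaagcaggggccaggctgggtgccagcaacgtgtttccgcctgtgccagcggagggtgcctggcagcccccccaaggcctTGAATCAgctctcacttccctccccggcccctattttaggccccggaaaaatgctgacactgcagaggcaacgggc
The IRF8 promoter stretch had a GC content of 74.5%, against 63.9% in the CSF1R stretch. The bases before the TLR4 start site, whose promoter was also called in all 8 lists, had 45.5%. Those before the CD14 start site, with a peak over that site in 4 lists, had 57.0%. The promoters called in all 8 lists thus gave both the highest and the lowest of these values. Whether GC content goes with the number of lists was not tested. The CSF1R intronic element held 1 AP-1 match, at bases 126 to 132.

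For ITGAM, the upstream element is centred on the suckling liver summit (chr3:17275822-17276022, minus strand) and the promoter element on the spleen summit (chr3:17269519-17269719, minus strand), which lies in an intron before the start of shorter transcripts.
ITGAM upstream element: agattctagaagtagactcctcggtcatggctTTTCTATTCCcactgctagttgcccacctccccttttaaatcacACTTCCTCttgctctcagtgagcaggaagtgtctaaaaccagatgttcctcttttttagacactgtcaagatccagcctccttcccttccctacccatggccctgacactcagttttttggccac
ITGAM promoter element: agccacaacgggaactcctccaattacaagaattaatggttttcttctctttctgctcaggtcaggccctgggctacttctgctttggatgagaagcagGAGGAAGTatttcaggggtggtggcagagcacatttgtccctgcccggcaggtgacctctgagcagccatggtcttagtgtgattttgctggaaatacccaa
The upstream element held an ETS-IRF composite match at bases 33 to 42 and a PU.1 match at bases 77 to 84. The promoter element held a PU.1 match at bases 100 to 107, which spans the summit.

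For the lipopolysaccharide receptors, the bases before the start sites of CD14 (chr2:142349687-142349886, minus strand) and TLR4 (chr1:258044410-258044609, plus strand) and the region downstream of TLR4 (chr1:258055859-258056059, plus strand, centred on the spleen summit) are shown.
CD14 promoter: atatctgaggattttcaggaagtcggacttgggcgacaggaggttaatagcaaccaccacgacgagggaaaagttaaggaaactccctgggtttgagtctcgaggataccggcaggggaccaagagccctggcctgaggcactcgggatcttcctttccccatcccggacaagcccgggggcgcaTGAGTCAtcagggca
TLR4 promoter: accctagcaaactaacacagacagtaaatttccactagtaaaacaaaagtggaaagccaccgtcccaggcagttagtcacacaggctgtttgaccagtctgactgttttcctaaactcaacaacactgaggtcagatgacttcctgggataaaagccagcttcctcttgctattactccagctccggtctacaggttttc
TLR4 downstream element: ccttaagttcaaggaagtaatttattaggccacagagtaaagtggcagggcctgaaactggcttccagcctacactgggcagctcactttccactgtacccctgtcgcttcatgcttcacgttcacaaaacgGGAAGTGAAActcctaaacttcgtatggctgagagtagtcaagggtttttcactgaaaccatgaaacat
The CD14 promoter held an AP-1 match at bases 186 to 192, and the downstream element of TLR4 a composite match at bases 133 to 142. Over all PCGs, the 200 bases before the first start site held a PU.1 match in 1.41%, a composite match in 1.71%, a C/EBP match in 6.35%, a RUNX match in 2.8% and an AP-1 match in 4.2%. CD163 had its strongest peak over an exon, and its sequence is not shown.

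The newborn spleen list held 46 peaks at the 7 genes, the newborn liver list 34 and the newborn lung list 16. Suckling liver had 43 and adult liver 33, and kidney, heart and muscle had 23, 18 and 12. The median gene of the 7 had 8 peaks in spleen, 2 in lung and 5 in newborn liver, against 3, 3 and 4 over all PCGs. In suckling and adult liver it had 6 and 4, against 5 and 4. In kidney, heart and muscle it had 3, 2 and 2, against 4, 2 and 2. The lists differ in length, so the counts were also taken over an equal number of top peaks, 57126 in each list. Spleen then had 30, newborn liver 14, suckling liver 19, adult liver 12 and lung 9, and spleen held more than either of the other newborn lists on both scales. Per 1000 peaks of a list, the genes took 0.545 in spleen, 0.283 in newborn liver, 0.198 in lung, and 0.303 in both suckling and adult liver.

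**Figure D1:**
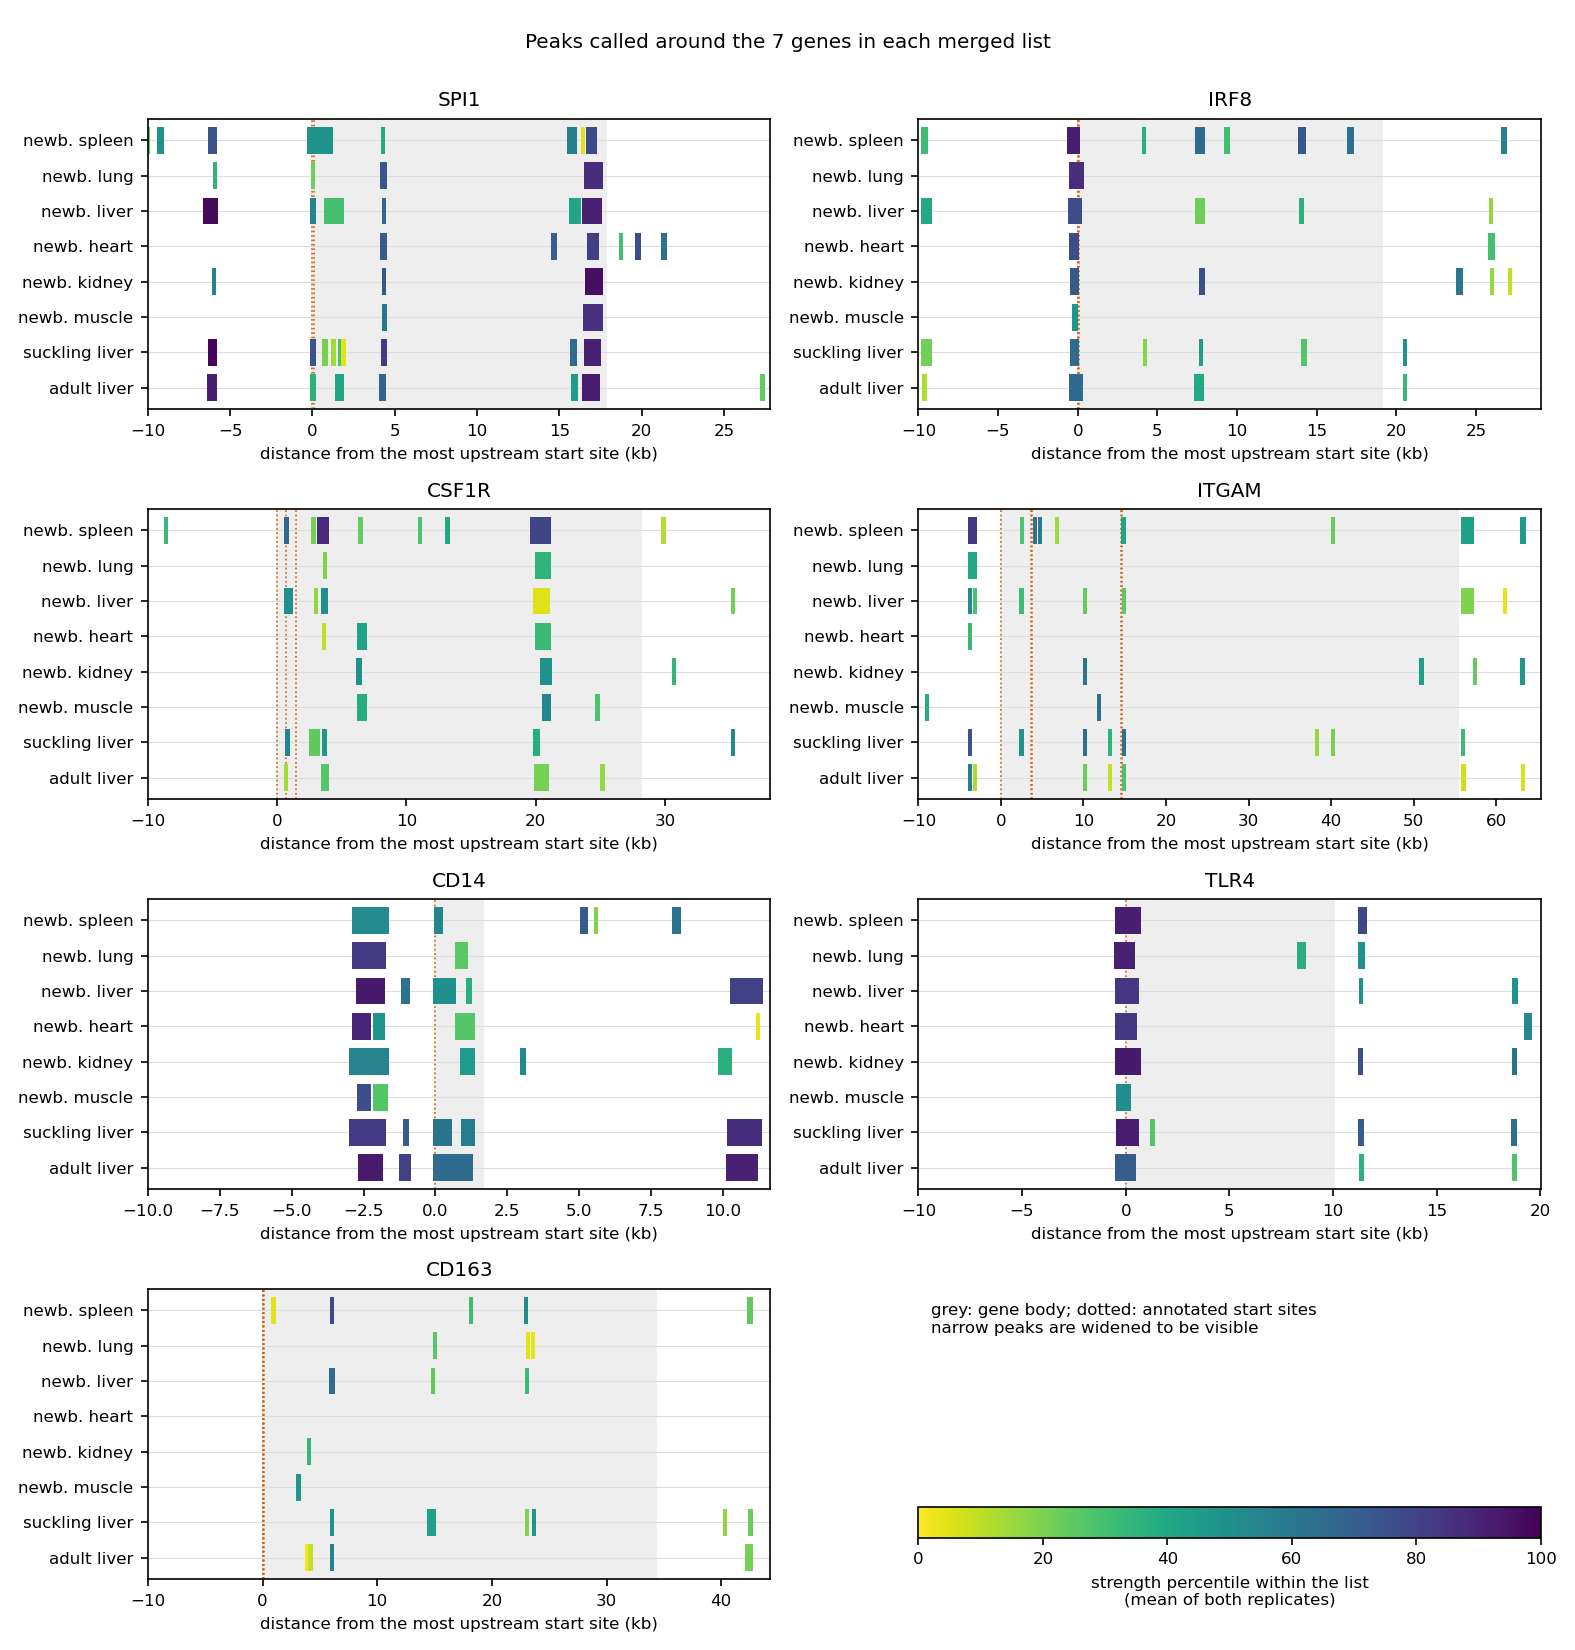
Peaks called around each of the 7 genes, with 1 row per merged list and the distance from the most upstream start site in kb on the horizontal axis (newb., newborn). The colour gives the strength percentile within the list, the grey area the gene body and the dotted lines the start sites; CD163 had no peak in heart and no promoter peak in any list.

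Peaks in introns made up 16 of the 46 spleen peaks, 15 of 43 in suckling liver, 8 of 34 in newborn liver, 7 of 33 in adult liver and 5 of 16 in lung. Promoter peaks numbered 9 in spleen, 9 in newborn liver, 10 in suckling liver, 9 in adult liver and 4 in lung. The shares of all peaks of each list by place were not computed. Whether the intron and promoter counts at the genes differ from those shares is therefore not known. The irreproducible discovery rate (IDR) estimates how likely a peak is not to recur between replicates. A rate of at most 0.05 was reached by 12 of the spleen peaks, 4 in lung, 5 in newborn liver, 16 in suckling liver and 11 in adult liver. These were 26.1%, 25%, 14.7%, 37.2% and 33.3% of the peaks at the genes, beside 25.9%, 20.6%, 19.2%, 33.8% and 50.4% of all peaks of the same lists, so the widest gap was in adult liver, where the genes had the lower share.

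**Figure D2:**
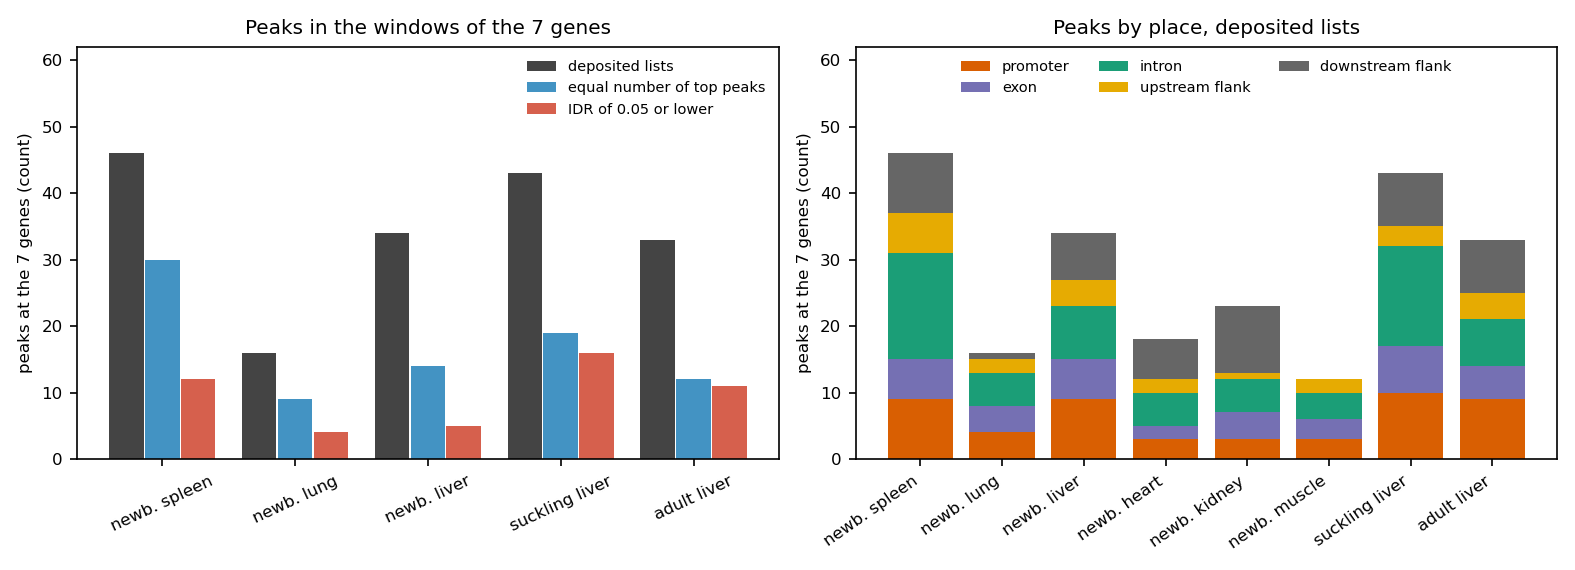
Number of peaks at the 7 genes in 5 lists as deposited, after keeping an equal number of top peaks, and after an IDR threshold (left), and by place in all 8 lists (right); vertical axes are counts of peaks from 0. Spleen had the tallest bar in the deposited and equal-length counts (46 and 30), and suckling liver in the IDR count (16).

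A promoter peak was called for 6 of the 7 genes in spleen, newborn liver, suckling liver and adult liver, for 4 in lung and for 3 in each of heart, kidney and muscle. Over all PCGs the share was 68.8% in spleen, 73.5% in newborn liver, 74.8% in suckling liver, 69.7% in adult liver, 70.4% in lung, 67.9% in heart, 75.1% in kidney and 61.4% in muscle. The counts in lung, heart, kidney and muscle include CD14, whose only promoter peak in each of these lists overlaps the promoter of the neighbour TMCO6. When such peaks were left out, 3 genes remained in lung and 2 in each of heart, kidney and muscle. At an IDR of at most 0.05, the promoters of 3 genes remained in spleen (all PCGs, 42.9%), 2 in lung (40.6%), 2 in newborn liver (44.0%), 5 in suckling liver (55.3%) and 3 in adult liver (56.7%). The strength of a peak is given as a percentile, which ranks the −log10 p of a replicate among all peaks of its list from 0 to 100, because −log10 p itself moves with depth. The strongest promoter peak of a PCG had a median percentile of between 77.7 in muscle and 88.9 in kidney, so that a promoter peak near 50 was weak among promoters. A percentile depends on the length of the list, and a longer list reaches weaker peaks. The 18 orders between lists given below, in which every replicate value of one side lay above every value of the other, were therefore also examined by rank within the list, an alternative chosen after the values were seen. By rank 11 of the 18 held, and the other 7 are named where they stand. A rank cannot exceed the length of its list, so ranks are not free of that length either.

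SPI1 encodes PU.1, and its promoter was called in spleen, lung and liver of every age and not in heart, kidney or muscle. In newborn liver the −log10 p was 33.1 and 9.83 in replicates 1 and 2, at percentiles of 56.4 and 55.4. In suckling liver the percentiles were 71.1 and 75.6, in adult liver 27.3 and 44.4, and in lung 15.8 and 28.6. Both suckling values lay above both newborn liver values, and both of those above the adult and lung values. In spleen the replicates stood apart, with a −log10 p of 40.0 in replicate 1 and 5.38 in replicate 2, at percentiles of 88.3 and 8.68, so the spleen level cannot be placed among the others.

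The region 5.9 kb upstream of SPI1 had a higher mean percentile than the promoter in each of the 5 lists that called both. In newborn liver its −log10 p was 297 and 109 at percentiles of 96.0 and 99.1, in suckling liver 80.0 and 115 at 98.5 and 98.1, and in adult liver 148 and 205 at 88.7 and 94.4. Spleen gave percentiles of 86.6 and 62.2, kidney 61.1 and 50.9, and lung 49.1 and 19.6, and no peak was called there in heart or muscle. Every liver percentile lay above every value of spleen, kidney and lung at this element, but by rank adult liver replicate 1 (12369 from the strongest) fell behind spleen replicate 1 (11328). An intronic region 4.25 kb into the gene and a region at its 3′ end, 16.9 kb from the start site, were called in all 8 lists. The latter reached the promoter of MYBPC3, a heart muscle gene, and 3 peaks called in heart alone lay at the promoter or in the body of MYBPC3.

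IRF8, an interferon regulatory factor of monocytes, dendritic cells and B cells, had a promoter peak in all 8 lists, a pattern shared by 56.7% of PCGs. The percentiles were 91.8 and 91.3 in spleen, 87.9 and 85.0 in lung, 89.7 and 64.8 in newborn liver, 77.2 and 77.1 in heart, 67.8 and 77.3 in kidney, 60.8 and 71.3 in suckling liver, 71.7 and 60.7 in adult liver, and 46.2 and 48.6 in muscle. Both spleen values exceeded every other value, and the 3 liver ages overlapped. Muscle had the lowest percentiles in the shortest list, and by rank its values (30725 and 29360) lay ahead of both values of suckling liver (55590 and 40699). Of the 8 spleen peaks of IRF8, 7 lay outside the promoter, and lung had no peak besides the promoter. Spleen peaks 14.0 kb and 7.70 kb from the start site had percentiles of 71.4 and 74.2, and of 62.4 and 69.2. The peak near 7.7 kb overlaps an exon and was also called in newborn liver (38.0 and 6.2), suckling liver (35.8 and 51.9), adult liver (31.2 and 47.7) and kidney (76.7 and 75.4), and both kidney percentiles were above both spleen percentiles. By rank these overlapped, at 31042 and 32814 in kidney and 31677 and 25977 in spleen.

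CSF1R had a promoter peak, over the middle of its 3 start sites, in spleen and liver of every age and in no other list. The −log10 p in spleen was 13.2 and 26.4, at percentiles of 66.7 and 67.8. Newborn liver had 13.4 and 12.7 at 35.4 and 65.5, suckling liver 8.61 and 11.7 at 56.1 and 52.5, and adult liver 5.48 and 7.43 at 12.1 and 15.1. The adult values lay below all others, and the newborn and suckling liver values overlapped. The intronic element 2.3 kb from the innermost start site was the strongest CSF1R peak in spleen, with 41.6 and 71.6 at percentiles of 88.8 and 88.1. It was weaker in newborn liver (64.2 and 36.5), suckling liver (57.1 and 35.2), adult liver (12.8 and 40.5), lung (10.1 and 27.6) and heart (6.17 and 12.9), and both spleen values exceeded every value of these lists. A second intronic region, 19.6 kb from the same start site, was called in all 8 lists, at 80.8 and 78.1 in spleen and with a lower value in both replicates of every other list. The highest of those were 71.6 in kidney replicate 2 and 60.7 in muscle replicate 2.

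**Figure D3:**
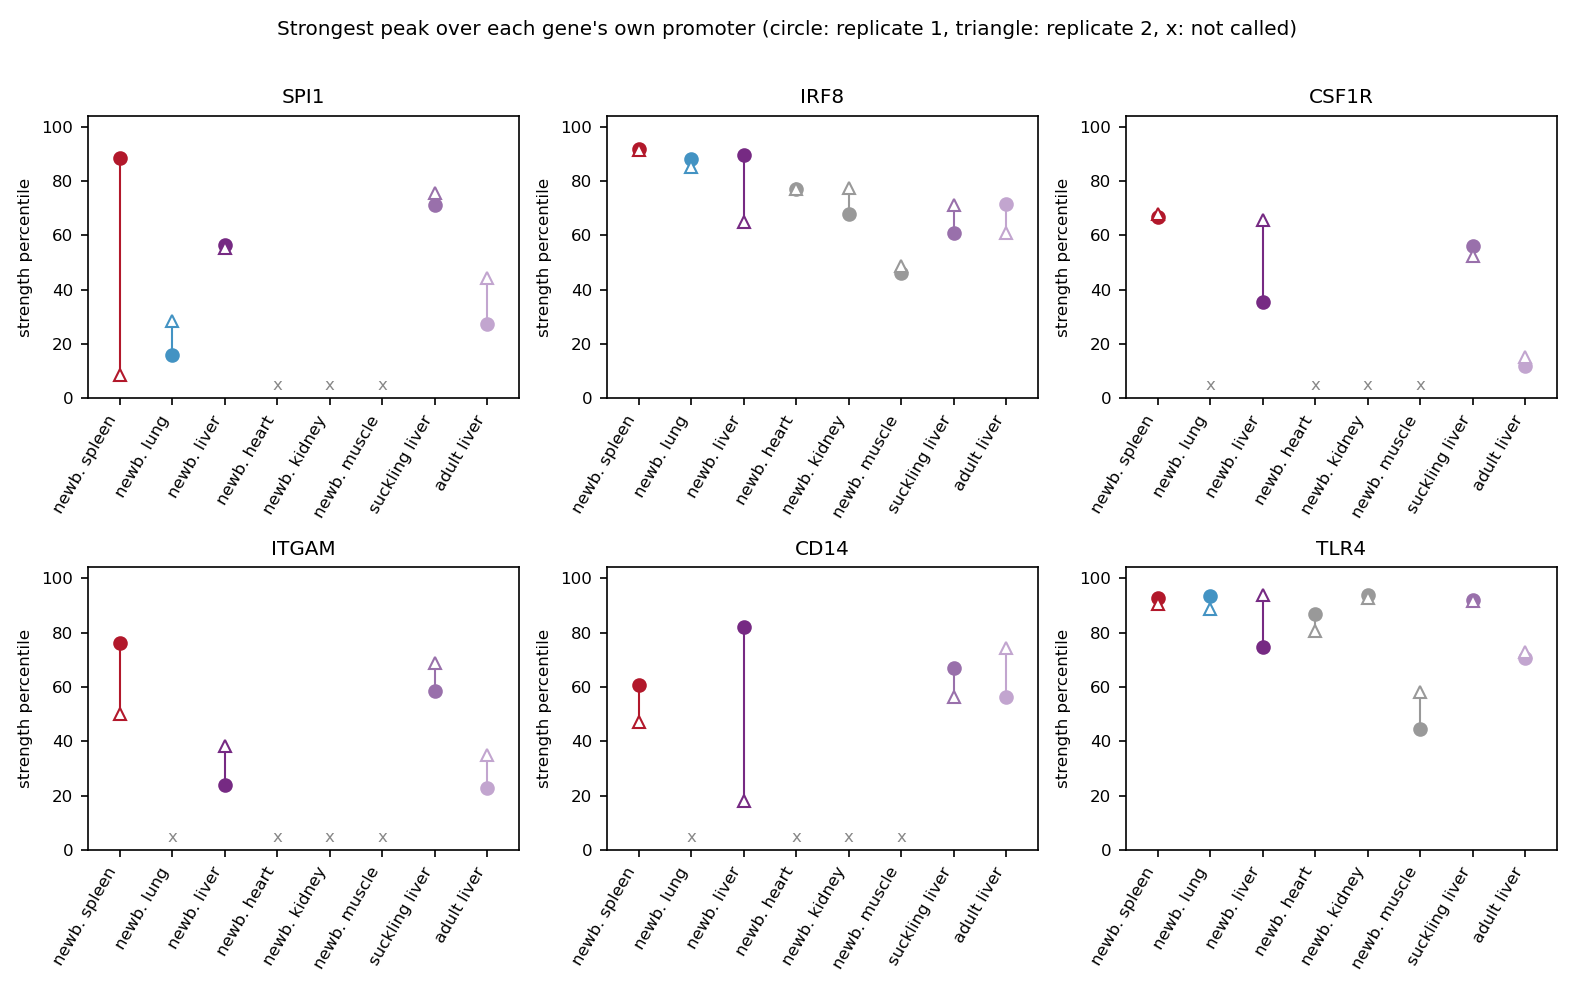
Strength percentile (vertical axis, 0 to 100) of the strongest peak over the promoter of 6 genes in each list, leaving out peaks that overlap the promoter of another gene. Circles are replicate 1, open triangles replicate 2 and an x a promoter that was not called; SPI1 in spleen and CD14 in newborn liver show the widest gaps between replicates, 88.3 against 8.68 and 82.0 against 17.9, and for ITGAM the strongest peak lies at different places in spleen, newborn liver and the later livers.

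ITGAM, the CD11b chain of complement receptor 3, had promoter peaks in spleen (3 peaks), newborn liver (2), suckling liver (3) and adult liver (2), and none in lung, heart, kidney or muscle. None of these covered a start site. In suckling liver the strongest, beside the innermost start sites, had a −log10 p of 9.25 and 19.2 at percentiles of 58.5 and 68.7. At the same place spleen had 46.4 and 35.7, adult liver 22.7 and 34.8, and newborn liver 3.96 and 45.9. The strongest spleen promoter peak lay elsewhere, 0.374 kb after another start site, at 76.3 and 50.2, and was called in no other list. The upstream element was the strongest ITGAM peak in spleen, with 82.6 and 85.3, and was called in 6 lists. Suckling liver had 81.8 and 67.4 there, adult liver 59.1 and 54.0, newborn liver 53.4 and 50.4, lung 39.7 and 40.8, and heart 30.0 and 35.3. The percentiles of these 6 lists fell in that order without overlap between neighbours, which rests on 2 libraries each. The summits differed between lists, and those of spleen, lung and heart lay outside the bases shown for this element. Newborn and adult liver had separate peaks in this region, of which the stronger was used. By rank, spleen (14692 and 12375) stayed ahead of suckling liver (25732 and 46179) and adult liver ahead of newborn liver, whereas suckling and adult liver overlapped, lung and heart overlapped, and lung (48610 and 47788) came before newborn liver (55947 and 59507).

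CD14, the lipopolysaccharide co-receptor, is a gene of 1651 bp whose promoter window reaches the promoter of TMCO6. A peak about 2.3 kb before the CD14 start site, which also overlaps that promoter, was called in all 8 lists. A peak over the CD14 start site itself was called in spleen and liver of every age and in no other list. Its percentiles were 60.8 and 47.0 in spleen, 82.0 and 17.9 in newborn liver, 67.1 and 56.2 in suckling liver, and 56.4 and 74.3 in adult liver, and these ranges overlapped. In lung, heart and kidney a peak lay about 1 kb further into the gene, at 47.1 and 3.65, 21.0 and 32.4, and 40.7 and 50.6. A separate peak was also called there in newborn liver (36.1 and 38.5) and suckling liver (63.8 and 51.2). The adult liver peak over the start site extended to the same place, and muscle had no peak over the gene. A peak about 1 kb before the start site, which likewise overlaps the promoter of TMCO6, was called only in liver, at 78.4 and 46.1 in newborn, 76.4 and 66.2 in suckling and 85.5 and 75.6 in adult liver.

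TLR4, the signalling receptor for lipopolysaccharide, had a promoter peak in all 8 lists. The percentiles were 93.7 and 92.6 in kidney, 92.8 and 90.4 in spleen, 92.1 and 91.5 in suckling liver, 93.3 and 88.7 in lung, 74.7 and 93.9 in newborn liver, 86.8 and 80.6 in heart, 70.8 and 72.8 in adult liver, and 44.6 and 58.2 in muscle. Kidney, spleen, suckling liver and lung together lay between 88.7 and 93.7. Both adult liver values were below both values of suckling liver and of newborn liver, but by rank adult liver (31834 and 29679) and newborn liver (30386 and 7268) overlapped. The downstream element, 11.3 kb from the start site, was called in 6 lists, at 83.9 and 68.6 in kidney, 79.7 and 78.2 in spleen, 74.7 and 66.3 in suckling liver, 37.1 and 60.9 in newborn liver, 59.3 and 40.4 in lung, and 29.1 and 42.5 in adult liver.

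CD163 had no promoter peak in any list, a pattern shared by 17.0% of PCGs. Its strongest peak lay 6.0 kb into the gene, over an exon, and was called in spleen and liver of every age and in no other list. The −log10 p was 26.3 and 32.4 in spleen at percentiles of 82.5 and 73.9. Newborn liver had 47.4 and 13.1 at 64.3 and 66.6, suckling liver 6.50 and 14.5 at 40.0 and 59.9, and adult liver 14.7 and 49.7 at 44.4 and 66.5. Both spleen values exceeded every liver value, and the liver ages overlapped in part. CD163 had 5 peaks in spleen, 6 in suckling liver, 4 in adult liver, 3 in newborn liver and 3 in lung, of which all 3 lung peaks had a replicate value at or below the 2.74 percentile.

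**Figure D4:**
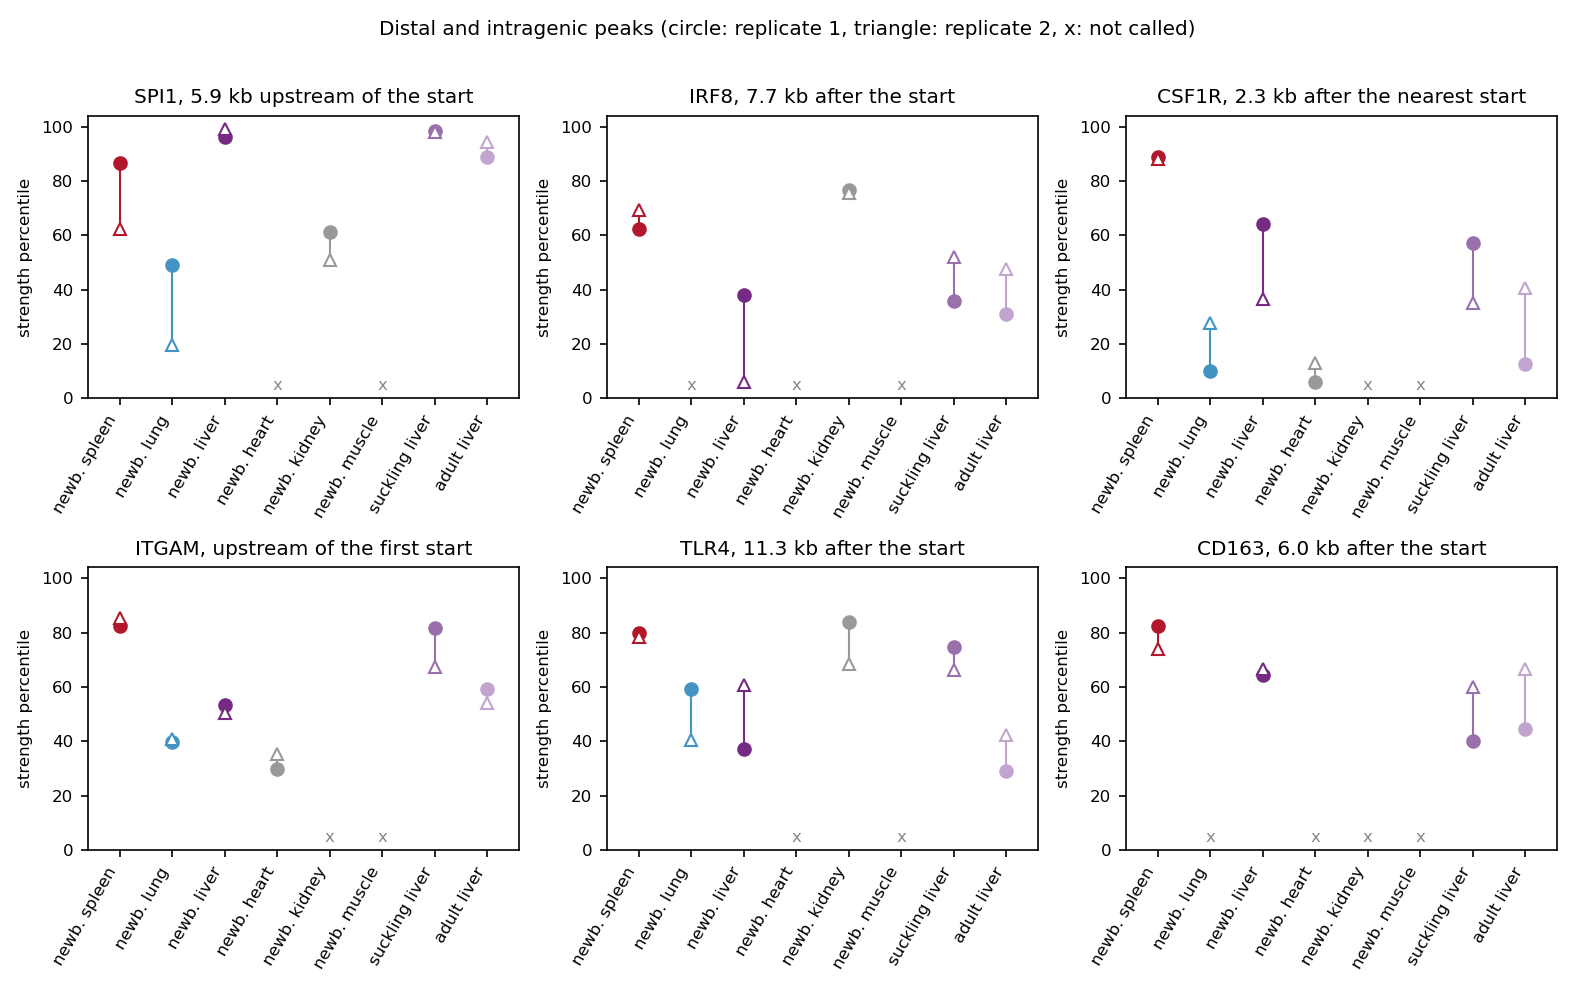
Strength percentile (vertical axis, 0 to 100) of peaks outside the promoters in each list, with circles for replicate 1, open triangles for replicate 2 and an x where no peak was called. At SPI1 the percentiles of the liver lists sit between 88.7 and 99.1, above all others (though not by rank for adult liver and spleen), whereas at CSF1R and CD163 spleen sits above the liver lists.

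The promoters called in a newborn tissue and not in another were compared next. Between spleen and newborn liver none of the 7 differed, in either direction, where 2.49% of PCGs were called in spleen alone and 7.26% in newborn liver alone. Between spleen and lung, CSF1R and ITGAM were called in spleen and not in lung, 2 of 7 genes beside 3.77% of PCGs, and no gene had the opposite pattern (5.46% of PCGs). CSF1R and ITGAM were likewise called in newborn liver and not in lung, 2 of 7 beside 5.95%, and none in lung and not in newborn liver (2.86%). CD14 joins both counts, as 3 of 7, when peaks over the promoter of another gene are left out. A promoter called in spleen and every liver age, and in none of heart, kidney and muscle, was found for SPI1, CSF1R and ITGAM. The same held for 114 of 19560 PCGs (0.583%). This pattern was chosen after the values were seen and was not recomputed with other settings.

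Peaks of the 8 lists that overlapped were merged into 76 regions around the 7 genes. Spleen and newborn liver shared 22 of the 52 regions called in either, 22 (42.3%) were called in spleen alone and 8 (15.4%) in newborn liver alone. Over the whole genome the corresponding shares were 21.8% and 44.2%, so the larger side was spleen at these genes and newborn liver in the genome. The newborn liver list is the longer, with 120012 peaks against 84327 in spleen, and a longer list can leave more regions unmatched. The spleen side stayed the larger at these genes under each of the 9 alternatives, at 32 against 22 with a flank of 25 kb. Against lung, 31 of 47 regions (66.0%) were called in spleen alone and 3 (6.38%) in lung alone, beside 35.8% and 32.0% in the genome. Newborn liver had 16 of 32 regions (50.0%) without lung, and lung 2 (6.25%) without newborn liver, beside 47.0% and 21.4%. The 2 lung regions lay over an exon of TLR4, 8.51 kb from the start site, and in CD163, 23.5 kb from it.

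Of the 76 regions, 38 were called in a single list, beside 48.4% of all regions of the genome, and 17 of the 38 (44.7%) were called in spleen, beside 11.5% of the regions of a single list in the genome. All 8 lists shared 6 regions (6.55% in the genome), namely the promoters of IRF8 and TLR4, the region before CD14 at TMCO6, both shared SPI1 regions and the CSF1R region 19.6 kb into the gene. Spleen and all liver ages shared 19 regions (25%, beside 12.7% in the genome), and 6 of these (7.89%, beside 1.26%) were called in none of heart, kidney and muscle, a pattern chosen after the values were seen. They were the promoters of SPI1, CSF1R and ITGAM, the exon region of CD163, a region 15.8 kb into SPI1 and a region 9.7 kb upstream of IRF8. Lung called only the SPI1 promoter among them. None of the 6 reached an IDR of at most 0.05 in spleen and every liver age alike. At the IRF8 region the IDR was 0.663 in spleen and 0.29, 0.631 and 0.484 in newborn, suckling and adult liver. The SPI1 promoter had 0.663 in spleen, the ITGAM promoter 0.607 in newborn liver and the CSF1R promoter 0.484 in adult liver. The shares of 25% and 7.89% were not recomputed under the alternatives.

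Across liver ages the same 6 genes had a promoter peak at each age, so none of the 7 differed in the calls. In the genome 2.14% of PCG promoters were called in newborn and not in suckling liver, 3.43% in suckling and not in newborn, 6.5% in suckling and not in adult, and 1.34% in adult and not in suckling liver. Between newborn and adult liver the shares were 5.47% for newborn alone and 1.61% for adult alone. Among an equal number of top peaks, however, adult liver kept the promoters of 3 genes (all PCGs, 58.1%), newborn liver of 5 (57.6%) and suckling liver of 6 (59.1%). The 7 genes had 43 regions in liver, 23 of them called at every age. The corresponding share of all regions of the genome was not computed, so this count has nothing to be set against. Of 39 regions called in newborn or suckling liver, 9 (23.1%) were called in suckling liver alone and 2 (5.13%) in newborn liver alone, beside 28.6% and 16.9% in the genome. From suckling to adult liver, 11 of 41 regions (26.8%) were called in suckling liver alone and 4 (9.76%) in adult liver alone, beside 33.8% and 17.0%. Newborn and adult liver each had 7 of 37 regions (18.9%) that the other did not call, beside 26.5% for newborn and 20.9% for adult liver in the genome. CD163 gave 3 of the 9 regions called in suckling and not in newborn liver, and ITGAM another 3. The regions called in newborn liver and at neither later age lay 25.9 kb and 46.4 kb from the nearest start sites of IRF8 and ITGAM, downstream of each gene. At the promoters of SPI1, CSF1R, ITGAM and TLR4 both adult percentiles were below both suckling ones, whereas at IRF8 and the CD14 start site the values of these ages overlapped.

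A match to the PU.1 consensus within 100 bp of the summit was found in 7 of 46 peaks of the genes in spleen (15.2%, beside 4.85% of all spleen peaks), in 5 of 34 in newborn liver (14.7%, beside 2.59%), 8 of 43 in suckling liver (18.6%, beside 2.59%), 5 of 33 in adult liver (15.2%, beside 2.39%), 4 of 23 in kidney (17.4%, beside 1.98%), 1 of 18 in heart (5.56%, beside 1.86%), none of 16 in lung (2.22% of all lung peaks) and none of 12 in muscle (1.48%). Peaks of different lists often cover the same element, so these are not independent counts. The spleen matches fell on 4 ITGAM peaks, the TLR4 promoter, the IRF8 peak at 7.70 kb and a CSF1R intron peak at 11.8 kb. The composite element was matched in 1 spleen peak (2.17%, beside 3.21%), 1 lung peak (6.25%, beside 1.9%) and 1 newborn liver peak (2.94%, beside 2.18%). Suckling and adult liver had 2 each (4.65%, beside 2.03%, and 6.06%, beside 2.29%). All these matches lay in the downstream element of TLR4 or the upstream element of ITGAM. RUNX matched 5 of 46 spleen peaks (10.9%, beside 5.37%), among them the CSF1R promoter and the CD163 exon region, and C/EBP 4 of 46 (8.7%, beside 9.83%). AP-1 matched 5 of 46 spleen peaks (10.9%, beside 8.25%) and none of 16 in lung (8.03%). In newborn, suckling and adult liver AP-1 matched 11.8%, 6.98% and 9.09%, beside 7.44%, 6.86% and 7.32%. A match is a run of letters and not a measured binding site.

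Of 77 other genes of the myeloid lineage, 73 were matched to the annotation. A promoter peak was called for 62 of the 73 in spleen, 61 in newborn liver, 50 in lung, 44 in heart, 54 in kidney and 25 in muscle. Suckling liver had 61 and adult liver 54. Spleen and newborn, suckling and adult liver thus had 84.9%, 83.6%, 83.6% and 74.0%, beside 68.8%, 73.5%, 74.8% and 69.7% of PCGs. Lung, kidney, heart and muscle had 68.5%, 74.0%, 60.3% and 34.2%, beside 70.4%, 75.1%, 67.9% and 61.4%. All 14 transcription factors of this list, such as CEBPA and RUNX1, were called in every list but muscle, which had 10. Among integrins, adhesion and chemokine receptors, 5 of 6 were called in spleen, 3 in lung and 4 in newborn liver, and among phagocytic and scavenging genes 10 of 12 in spleen, 7 in lung and 8 in newborn liver. Pattern recognition genes had 11 of 14 in spleen, 9 in lung and 12 in newborn liver, and effectors 8 of 11, 5 and 9. Growth factors and their receptors had 7 of 8 in both spleen and newborn liver and 6 in lung. The group of complement, Fc and signalling adaptor genes had the same counts. ITGAD (another integrin alpha chain), the scavenger receptor MARCO and the phosphatidylserine receptor TIMD4 were called in spleen and not in newborn liver, 3 of 73 beside 2.49% of PCGs, and 2 of 73 had the opposite pattern, beside 7.26%. The spleen percentiles were 39.9 and 87.7 for ITGAD, 53.6 and 61.1 for MARCO, and 42.0 and 41.0 for TIMD4. Between newborn and suckling liver 3 of 73 were called at the later age alone (3.43% of PCGs) and 3 at the earlier alone (2.14%). ITGAD, TIMD4, the complement receptor VSIG4 and the neutrophil elastase gene ELANE were called in suckling or adult liver and not in newborn liver, with VSIG4 at 16.4 and 8.12 in suckling liver and ELANE at 20.3 and 8.31 in adult liver.

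Markers of other cells moved with several of these results. Beside the counts that follow, the share of all PCGs with a promoter peak ran from 61.4% in muscle to 75.1% in kidney over the 8 lists. Promoter peaks of T cell genes were called for 9 of 9 in spleen, 2 in lung, 4 in newborn liver, 9 in suckling and 8 in adult liver, and those of B cell genes for 9 of 9, 3, 6, 7 and 5. Erythroid genes had 10 of 10 in spleen, 3 in lung, 8 in newborn liver, 5 in suckling and 3 in adult liver, and the general leukocyte list 10 of 10 in spleen and liver of each age and 8 in lung. Endothelial genes differed little among these lists, with 8 of 9 in spleen and the liver lists and 9 in lung. Heart and kidney also had 8 of 9, whereas muscle had 4. Hepatocyte genes had 2 of 10 in spleen, 3 in lung, 9 in newborn liver and 10 at both later ages. Lung epithelial genes had 9 of 10 in lung and 4 in spleen, and spleen stroma genes 6 of 7 in spleen and 4 in lung. Each of these marker lists was fullest in its own tissue, but heart and kidney each called 5 of the 7 spleen stroma genes. Heart, kidney and muscle called 6, 8 and 3 of the 10 general leukocyte genes. The part of other leukocytes in the results at the 7 genes was not tested.

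The PCGs whose strongest promoter peak had the most similar percentiles over the 8 lists were found by Euclidean distance, with 0 where no peak was called. For CSF1R they were CRYBA4 (15.0), ADGRE1 (16.5) and LOC100620152 (18.9). For ITGAM they were MEFV (8.12), CCL5 (13.7) and CD300LF (15.5). The neighbours of IRF8 were ORAI3 (16.8), BAIAP2 (17.9) and SLC4A1AP, those of TLR4 were SLC12A4 (5.57), ZNF500 (9.11) and IL6 (9.78), and those of CD14, whose strongest promoter peak is the one at TMCO6 in every list but spleen, were KIAA1456 (23.5), RNF144A (23.9) and CMTM8 (25.4). CSF1R and ITGAM had the same pattern of calls, in spleen and the 3 liver lists alone, as 75 PCGs in all, and SPI1, with lung added, as 39. CD163 had no promoter peak and therefore no neighbours.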

How the data were processed

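The authors mapped the reads to Sscrofa11.1 (Bowtie2), filtered out mitochondrial and duplicate reads and those of low mapping quality (SAMtools 1.3.1), called peaks per replicate with MACS2 and matched the replicates of each group by the irreproducible discovery rate (IDR). The deposited −log10 p of each replicate was used to rank peaks within a list. The score deposited beside it rises as the IDR falls, 540 being an IDR of 0.05, and the authors kept peaks up to an IDR of 0.745. The lists hold no read counts, so the reads behind each peak and the detection limits are unknown, and weak peaks depend on depth. The library totals that the study gives were not used here. No column of per-sample values was left unused.

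Peaks were assigned with interval overlaps written in Python 3.11.15 (pandas 2.3.3), tested on simulated intervals, to RefSeq genes of chromosomes 1 to 18, X and Y. Replicate values were turned into mid-rank percentiles within each list. Regions are peaks of the 8 lists merged where they overlapped. Motifs were exact consensus matches on both strands. All 7 genes were named, other myeloid genes by fixed patterns of promoter calls, and 3 neighbours per gene by distance. The neighbours of SPI1 and 1 sequence are not reported here. The genes, marker lists and motifs were chosen with earlier results of these data known. Each group is a merged list of 2 libraries, and no test between groups was made. Alternatives changed the peaks kept, list length, replicate used for ranking, promoter, flank, overlap and neighbouring promoters, for motifs the window, and, added after the values were seen, rank in place of percentile.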

Additional observations from a re-analysis of the deposited data

How the results depend on the processing

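A total of 34 counts (promoters, peaks and regions of the 7 genes in the lists and pairs of lists) were recomputed under 9 alternatives. All 34 stayed within 1.5 times of the value reported when a larger overlap was required (0.5 of the peak, or of the promoter or window) or peaks over the promoter of another gene were left out, and 33 with a narrower promoter, where 1 promoter was called in spleen and not in newborn liver in place of 0. Only 3 counts stayed within 1.5 times under every alternative. For pairs of lists, the shares of all PCGs and of all regions were not computed under the alternatives. Whether the changes given below exceed those over all genes is therefore not known. The cause of each change was not tested, beyond the smaller or larger number of peaks that an alternative keeps. The lists give no read counts, so what depth limits at a peak was not computed. No paired analysis was possible because no result comes from a test and a count in a merged list has 1 value per group. Of the 18 orders between lists by percentile, 11 held by rank within the list, an alternative chosen after the values were seen, and the length of the list does not enter a rank.

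With an equal number of top peaks, peaks at the genes numbered 30 in newborn spleen, 9 in newborn lung, 14 in newborn liver, 19 in suckling liver and 12 in adult liver, and the adult promoter count was 3 of 7. Regions of newborn liver not called in lung numbered 6, not in spleen 5, not in suckling liver 1 and not in adult liver 4. Adult liver had 2 without newborn and 2 without suckling liver, suckling liver 5 without newborn liver, and lung 1 without newborn liver. Promoters called in newborn and not in adult liver numbered 2, in newborn liver and not in spleen 1, in spleen and not in newborn liver 1, in suckling and not in adult liver 3, and in suckling and not in newborn liver 1, each against 0 as reported.

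With an IDR of 0.05 or lower, peaks numbered 12 in spleen, 4 in lung, and 5, 16 and 11 in the liver from newborn to adult, and promoters 3 in spleen, 2 in lung, 2 in newborn and 3 in adult liver. Regions of spleen numbered 10 without newborn liver and 9 without lung. Newborn liver had 3 without lung, 3 without spleen and 0 without either later age, suckling liver 6 without adult liver, adult liver 1 without suckling liver and lung 1 without spleen. Promoter counts were 2 for spleen and not newborn liver, 1 for the reverse, 1 for spleen and not lung, 1 for newborn liver and not lung, 1 for the reverse, 3 for suckling and not newborn liver, 2 for suckling and not adult liver, and 1 for adult and not newborn liver.

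A flank of 25 kb gave 76 peaks in spleen, 28 in lung, and 68, 77 and 62 in the liver from newborn to adult. Regions then numbered 51 for spleen without lung, 6 for lung without spleen, 38 for newborn liver without lung, 22 without spleen, 10 without suckling and 18 without adult liver. Suckling liver had 17 without newborn and 21 without adult liver, and adult liver 13 without newborn and 9 without suckling liver. With no flank, adult liver had 21 peaks, spleen 12 regions without newborn liver and 19 without lung. Newborn liver had 9 without lung, 3 without spleen, 0 without suckling and 4 without adult liver, and adult liver 3 without newborn and 2 without suckling liver.

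Ranking equal-length lists by a single replicate gave from 13 to 14 peaks in newborn liver, from 15 to 17 at the suckling age, from 10 to 13 in adults, 9 to 11 in lung and 30 to 33 in spleen, and 3 adult promoters either way. Regions ranged from 6 to 7 for newborn liver without lung, 3 to 5 without spleen and 4 to 5 without adult liver. Suckling liver had 4 without newborn liver either way and 5 to 6 without adult liver, and adult liver 0 to 5 without newborn and 0 to 3 without suckling liver. Both values of 0 came from the ranking without replicate 2. Promoters ranged from 1 to 2 for newborn and not adult liver, 0 to 1 for newborn liver and not spleen, 0 to 1 for newborn and not suckling liver, 1 to 2 for spleen and not newborn liver and 1 to 2 for newborn liver and not lung. Suckling and not adult liver had 2 and suckling and not newborn liver 1 either way. The motif window of 200 bp raised every share of all peaks, since it is longer.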
